A study of Mus musculus with 15 samples.

Results

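Wild-type microglia taken 28 days after an experimental stroke were set against wild-type microglia taken 14 days after it, that is, a chronic against a recovery stage. The comparison rests on 2 of the 15 libraries of the series, 1 for each day, and these are also 2 of the 5 libraries of a wild-type time course. All 24421 genes of the count table entered it. Both days came from male C57BL/6J mice, between 8 and 24 weeks old, that carried no engineered allele. Their middle cerebral artery, which supplies much of the forebrain, had been closed with a filament for 60 minutes and then reopened, and only mice with a drop in cerebral blood flow above 60% were kept. The sham, day 1 and day 6 libraries of the same table, given beside the results, came from mice of the same strain, with surgery but no occlusion in the sham group. A further pair of day 14 libraries, given in places, came from Igf1-Egfp transgenic mice, sorted into EGFP-negative and EGFP-positive microglia. Those mice were also between 8 and 24 weeks old, with occlusion for 60 minutes. The number of mice behind each library was not given in the sources used here. Cells were released from the forebrain with collagenase, enriched on a Percoll gradient, stained for CD45, CD11b and CD31, and sorted for intermediate CD45 and intermediate CD11b. The sort describes a phenotype that other myeloid cells can enter, and no lineage tracing marked the cells.

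Microglia are the resident macrophages of the brain. At rest they express sensing and identity genes such as P2ry12, Tmem119, Cx3cr1 and Sall1, and around injury they can take on a phagocytic program with Apoe, Spp1, Gpnmb, Lpl and Igf1. Presentation of antigen to CD4 T cells needs the class II molecules of the major histocompatibility complex (MHC), whose genes are controlled by the coactivator CIITA. Resting microglia express little of them, while dendritic cells, B cells and some monocytes and border macrophages express much.

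With 1 library for each day there is no replicate check, and no p-value is given. Values are CPM, counts scaled to 1000000 per library and corrected for library composition by TMM, the trimmed mean of M-values. The log2 ratio is that of day 28 over day 14 after 1 CPM was added to each value, which understates the change of low genes. A gene was past the size rule when it had at least 20 CPM in 1 of both libraries and an absolute log2 ratio of at least 2, a 4-fold difference on that scale. Folds are given with an exact binomial 95% interval (Clopper-Pearson), which covers counting error only. Levels of a gene over all 5 wild-type libraries are listed from the sham group onward, in order of time, with day 28 last. Total counts, in M (1000000 counts), were 16.8 on day 14 and 22.7 on day 28, against 42.5 to 52.6 in the other 3 wild-type libraries. A count was seen for 11823 genes on day 14 and for 9886 genes on day 28, against 16009 to 17321 in those 3. Of the counts from 1 to 20, 89.3% were even on day 14 and 88.3% on day 28. If both mates of a read pair were counted, the intervals are too narrow.

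The libraries carried the label's cell type, together with other cells' transcripts. All 12 microglia markers were detected in both, and their summed level was 9313 CPM on day 14 and 15160 CPM on day 28, against 31998 CPM in sham. Summed over their lists, 23 endothelial markers held 9738 CPM on day 14 and 40.9 CPM on day 28, and 19 mural cell and fibroblast markers held 1891 CPM and 2.19 CPM. Markers of neutrophils ran the other way, from 473 CPM to 3122 CPM, as did those of dendritic cells, from 2080 CPM to 4916 CPM, of which Sirpa (1423 CPM), Siglech (939 CPM) and Irf8 (505 CPM), which microglia also express, made up most on day 28. Monocyte markers summed to 2638 CPM and 3036 CPM, and the day 14 sum was mostly Fn1, a fibronectin gene that vascular cells also express, at 2095 CPM. In bulk samples, fewer cells of a type and less RNA per cell cannot be told apart. Neuron markers held 59.5 CPM and 0.35 CPM.

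**Figure D1:**
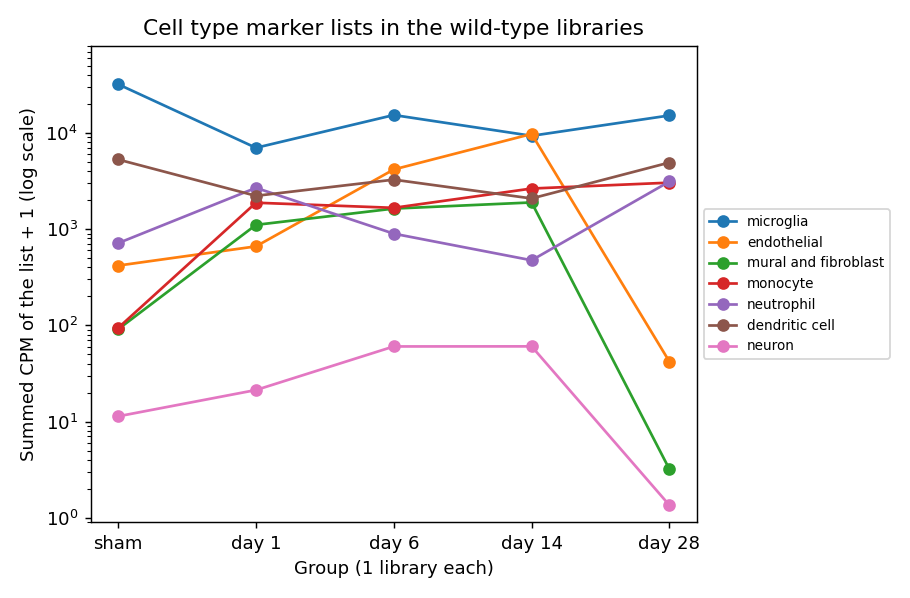
Summed CPM plus 1 (log axis) of 7 cell type marker lists in the 5 wild-type libraries, 1 point per library. The endothelial and the mural and fibroblast lists drop from 9738 and 1891 CPM on day 14 to 40.9 and 2.19 CPM on day 28, while the neutrophil list goes from 473 to 3122 CPM.

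The 250 bases before a gene's start hold the control elements of the class II genes. The X box is bound by the RFX complex and the Y box, spelled TGATTGG here, by NF-Y. Promoters from RefSeq on GRCm38.p6 were searched on both strands for TGATTGG and for TGATGATGC, called the X box core here. The latter letters need not be the ones that RFX binds. The last 130 bases before the start are shown 5′ to 3′ for 3 members of the class II list, since H2-Aa had the highest ratio of the list, H2-Eb1 was also past the size rule and H2-DMb1 was not. Capitals mark the matches. They lie at chr17:34287824-34287953 (minus strand), chr17:34305737-34305866 (plus strand) and chr17:34153061-34153190 (plus strand).
H2-Aa: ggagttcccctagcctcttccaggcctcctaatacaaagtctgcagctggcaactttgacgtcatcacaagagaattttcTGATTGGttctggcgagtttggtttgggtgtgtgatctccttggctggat
H2-Eb1: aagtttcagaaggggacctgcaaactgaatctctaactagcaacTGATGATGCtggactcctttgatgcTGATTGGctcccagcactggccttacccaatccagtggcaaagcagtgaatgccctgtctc
H2-DMb1: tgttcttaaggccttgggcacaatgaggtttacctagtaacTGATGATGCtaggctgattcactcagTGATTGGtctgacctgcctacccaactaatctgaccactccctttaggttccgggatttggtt
Counted back from the start, the Y box lay at -50 to -44 in H2-Aa, at -61 to -55 in H2-Eb1 and at -63 to -57 in H2-DMb1. The X box core lay upstream of it and apart from it, at -86 to -78 in H2-Eb1 and at -89 to -81 in H2-DMb1. Of 17 measured members of the list, 12 had a promoter in the RefSeq table. TGATTGG stood in 8 of these 12, in 4 of 6 that were past the size rule and in 4 of 6 that were not, against 7.23% of 32851 promoters of the same length. TGATGATGC stood in 2 of the 12, against 0.213% of promoters. Only this exact spelling was searched, so a promoter without a match, such as that of H2-Aa, may hold an X box spelled otherwise. A match is a description of the letters, and the members on either side of the size rule held the Y box equally often.

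Class II genes were higher on day 28. Of the 21 listed genes of class II presentation, 17 had at least 5 CPM in 1 of both libraries, and 9 of them were past the size rule higher and 1 lower, with a median log2 ratio of 4.09. Among all 10630 genes with at least 5 CPM, 11.3% were past it higher and 17.5% lower, and the median was -0.20. Over the 8241 genes that reached 20 CPM, these shares were 14.6% and 22.6%. With at least 10 counts on both days, 10 class II members had a median of 2.90. The list counts 2 called members with 0 counts on 1 of the days, and with such genes set to a floor of 3 counts in that library its median was 5.41.

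H2-Aa, the alpha chain gene of I-A (GRCm38 chromosome 17, 34282744 to 34287823), stood at 5.96, 69.6, 40.5, 0.54 and 1189 CPM. Its day 28 level was the highest of the 5 libraries and its day 14 level the lowest. The fold was 2185 (1188 to 4557) from 10 counts on day 14 and 27090 on day 28. H2-Ab1, the matching beta chain gene (chromosome 17, 34257689 to 34269419), stood at 4.05, 30.6, 16.6, 9.79 and 635 CPM, which is 64.8-fold (55.9 to 75.5). Cd74, which encodes the invariant chain that guards the peptide groove (chromosome 18, 60803848 to 60812652), stood at 26.4, 158, 78.3, 49.5 and 2144 CPM. That is 43.3-fold (40.6 to 46.3), and it rests on 910 counts on day 14. H2-Eb1, the beta chain gene of I-E, had 0.33 CPM on day 14 and 421 CPM on day 28, from 6 and 9604 counts. Ciita, chosen after its values were seen, encodes the class II coactivator (chromosome 16, 10480059 to 10528418). It stood at 1.20 CPM on day 14 and 104 CPM on day 28, a log2 ratio of 5.58, and between 1.24 and 7.95 CPM in the other 3.

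Size and certainty differed within the class II list. H2-DMa, a chain of the peptide editor H2-DM, had 4 counts on day 14 (0.22 CPM) and 89.0 CPM on day 28, but 44.0 CPM in sham and 36.4 CPM on day 6. H2-Ob, a chain of the editor's inhibitor, went from 3.26 to 71.5 CPM and had 32.9 CPM in sham. Day 14 was the lowest of the 5 libraries for both, and day 28 the highest. The costimulatory gene Cd80 had 2 counts on day 14 and 47.9 CPM on day 28, while its relative Cd86 stood at 197 and 250 CPM. H2-DMb1 (10.2 to 35.8 CPM), the protease gene Ctss (2334 to 2862 CPM) and the thiol reductase gene Ifi30 (88.8 to 140 CPM) were not past the size rule. Rfxap, a subunit gene of the RFX complex, went against the list, with 38.8 CPM on day 14, 0 counts on day 28 and 9.48 to 11.7 CPM in the other 3 libraries.

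Another pair of day 14 libraries gives a second reading of that day. They came from Igf1-Egfp transgenic mice, sorted into EGFP-negative and EGFP-positive microglia, and were sequenced on another instrument and scaled in a table of their own. H2-Aa stood there at 19.1 and 53.1 CPM, H2-Ab1 at 44.0 and 158 CPM, Cd74 at 192 and 309 CPM and H2-DMa at 277 and 369 CPM. All 4 had more CPM than in the wild-type day 14 library, H2-DMa also more than on day 28, and H2-Aa, H2-Ab1 and Cd74 less than on day 28. The microglia markers were also higher there, with sums of 44518 and 39100 CPM against 9313 CPM in the wild-type day 14 library. In CPM, the folds of class II genes vary with the day 14 library set against day 28. The part of library composition in this was not tested.

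**Figure D2:**
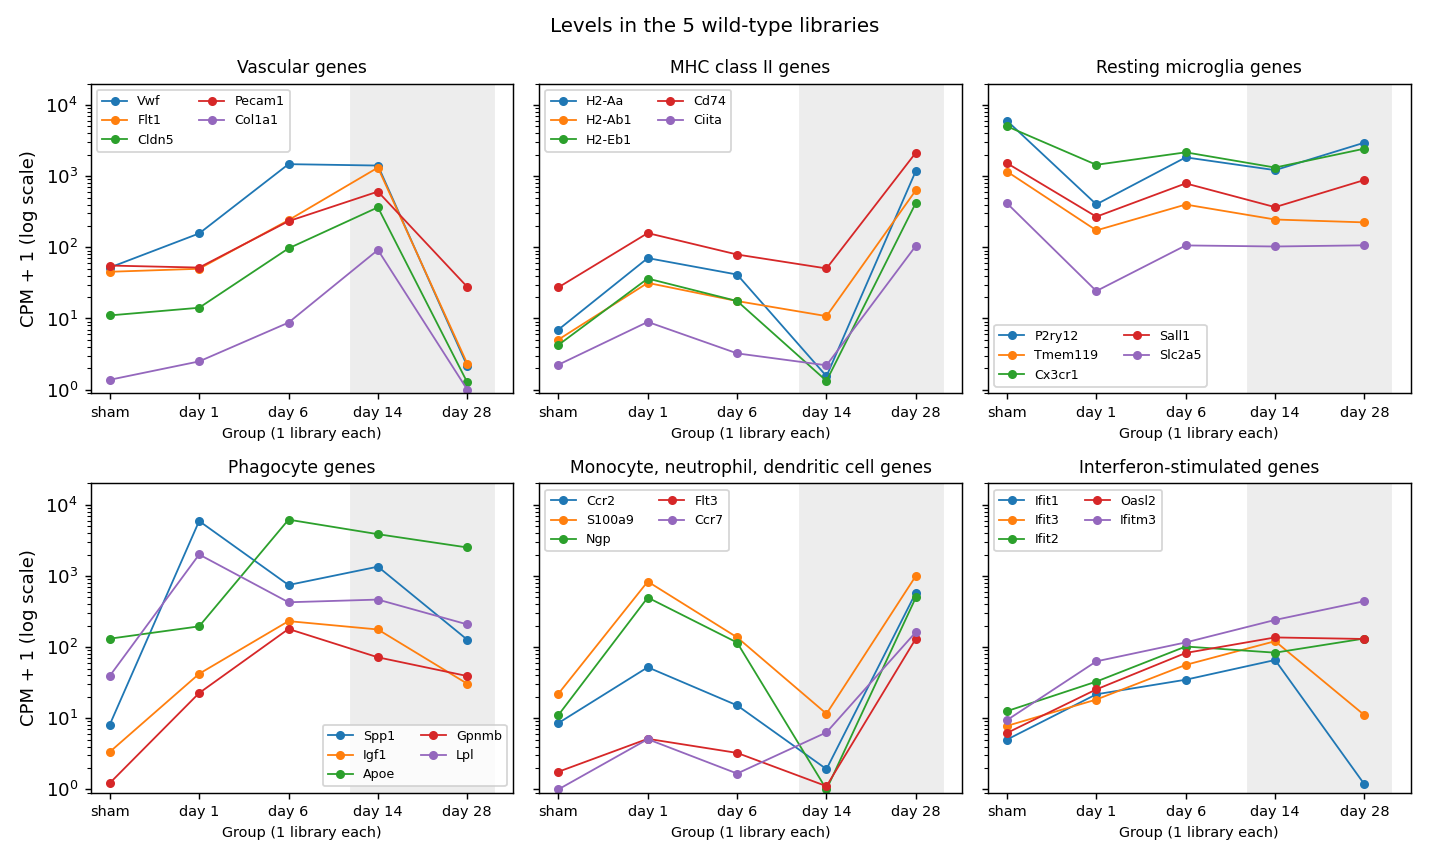
CPM plus 1 (log axis) of 30 genes in the 5 wild-type libraries, 1 point per library, with days 14 and 28 shaded. H2-Aa reaches 1189 CPM on day 28, Vwf drops from 1411 to 1.14 CPM, and P2ry12 stands at 1215 and 2963 CPM.

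Class I presentation genes stood closer together on both days. Class I molecules show peptides from inside the cell on nearly every cell type. None of 19 measured genes of 22 was past the size rule, and the median was 0.48, which turned to -0.23 when the libraries were scaled to the microglia markers. H2-K1 stood at 948 and 944 CPM and B2m, the light chain gene, at 2898 and 2412 CPM. Psmb8, an immunoproteasome gene, had the highest ratio, 1.51.

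Many genes typical of blood-derived myeloid cells were higher on day 28 as well. For monocytes, 11 of 16 measured markers of 18 were past the size rule higher and 1 lower, with a median of 3.94 and, over the 10 with at least 10 counts on both days, 3.28. Ccr2, the receptor gene with which monocytes follow CCL2 (chromosome 9, 124101950 to 124113557), stood at 7.55, 51.0, 14.2, 0.92 and 582 CPM. Its fold was 630 (393 to 1081), from 17 and 13269 counts. Itga4, an integrin gene used in entry into tissue, stood at 4.69, 36.8, 49.8, 41.5 and 433 CPM, a fold of 10.4 (9.70 to 11.3). Plac8 went from 19.9 to 254 CPM. S100a4 (101 CPM), Ifitm6 (84.3 CPM) and F10 (38.6 CPM) had 0 counts on day 14. Ace, a marker of patrolling monocytes that endothelium also makes, went from 119 to 0.18 CPM.

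For neutrophils, 8 of 16 markers were measured and 5 were past the size rule, all higher. S100a9, which encodes a calcium-binding protein abundant in neutrophils (chromosome 3, 90692632 to 90695721), stood at 21.1, 833, 136, 10.6 and 1003 CPM, a fold of 94.99 (82.5 to 110.0). S100a8 had 6 counts on day 14 and 574 CPM on day 28. The granule genes Ngp (498 CPM) and Ltf (232 CPM) had 0 counts on day 14. Days 1 and 28 were the high libraries for all 4 of them. Other listed markers did not follow: Retnlg and Mmp8, at 48.7 and 42.3 CPM on day 1, had 2 counts each on day 28. A further 5 had 0 counts on day 28, among them Cxcr2, Elane and Mpo. Mmp9, another granule gene, had 17.9 CPM and was below the minimum of the rule. Csf3r, which microglia express too, differed little, at 399 and 616 CPM. In the separately scaled day 14 libraries Ngp stood at 0.16 CPM in EGFP-negative and 527 CPM in EGFP-positive cells, so libraries of the same day also differ in it.

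Of 30 dendritic cell markers, 23 were measured and 12 were past the size rule, all higher. Flt3, the receptor gene of the growth factor that dendritic cells depend on, had 2 counts on day 14 and 131 CPM on day 28. Irf4, a transcription factor gene of one dendritic cell class, also had 2 counts and then 104 CPM. Cd209a, a lectin gene, had 0 counts and then 105 CPM, and Zbtb46, a factor gene of classical dendritic cells, went from 4.35 to 44.7 CPM. Ccr7, the homing receptor gene that brings dendritic cells to lymph nodes (chromosome 11, 99144196 to 99155077), stood at 0, 4.08, 0.67, 5.33 and 162 CPM. Its fold was 30.4 (24.8 to 37.5). Markers that microglia share, such as Siglech (436 and 939 CPM), Sirpa (932 and 1423 CPM) and Irf8 (146 and 505 CPM), were not past the size rule, and over the 15 members with at least 10 counts on both days the median was 1.45.

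A few lymphoid genes appeared on day 28. Jchain, the joining chain gene of secreted antibodies, had 90.5 CPM on day 28, 0.045 CPM on day 6 and 0 counts in the other 3 wild-type libraries. Fcmr (50.8 CPM) and Spib (38.9 CPM) had 0 counts on day 14 too. Of 20 B and plasma cell markers, 8 were measured, 3 were past the size rule higher and 1, Ebf1, lower, and 9 had 0 counts on day 28. Among 20 T cell markers 5 were measured, with Lck higher (2 counts and 25.3 CPM) and Il7r lower (33.4 and 0.18 CPM), and 12 had 0 counts on day 28. Natural killer cell markers were measured for 2 of 15 genes, neither past the rule. Mast cell and basophil markers were measured for 3 of 10, with 1 lower. Border macrophage markers were measured for 5 of 14, with Clec12a (17.2 to 87.4 CPM) and Mrc1 (2 counts and then 28.6 CPM) higher and Stab1 (208 and 247 CPM) not past the rule. Of the 14, 6 had 0 counts on day 28, among them Cd163, Lyve1, Pf4 and Folr2. With scaling to the microglia markers, 0 border macrophage markers and 0 T cell markers were past the rule higher. The summed B and plasma cell (255 and 340 CPM) and border macrophage markers (366 and 586 CPM) were higher on day 28, like the class II genes. Those of T cells (67.1 and 35.5 CPM), natural killer cells (17.5 and 16.5 CPM) and mast cells and basophils (121 and 19.6 CPM) were lower. The part of any of these cells, or of monocytes, neutrophils and dendritic cells, in the class II result was not tested.

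Several receptors of cell migration were higher on day 28. Of 16 measured genes of 27, 7 were past the size rule higher, among them Ccr2, Itgal, Ccr1, Ccr7, Itgb7 and Itga4. Itgal, an integrin chain gene of leukocytes, had 2 counts on day 14 and 71.8 CPM on day 28, and Ccr1 had 2 counts and 60.2 CPM. S1pr1, a receptor gene for sphingosine-1-phosphate that endothelium expresses, was the 1 member lower, from 502 to 0.53 CPM. The members that microglia express at rest were not past the rule, among them Selplg (734 and 1202 CPM).

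**Figure D3:**
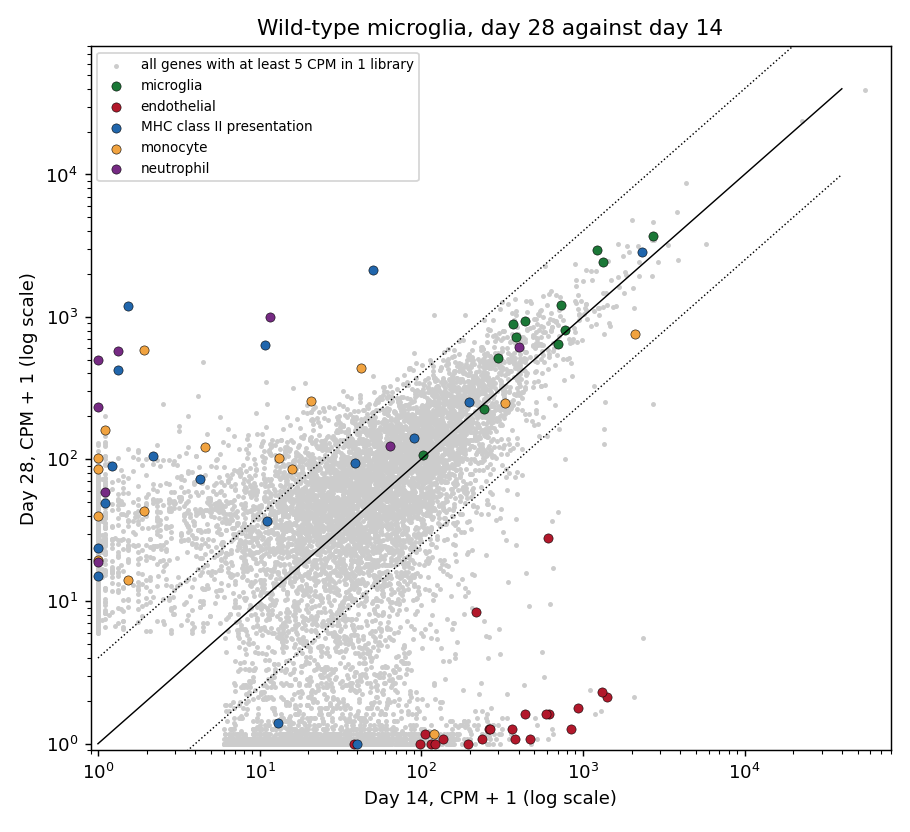
CPM plus 1 on day 28 against day 14 (both log axes) for every gene with at least 5 CPM in 1 library, with 5 lists coloured. The solid line marks equal levels and the dotted lines a 4-fold difference. All 22 measured endothelial markers lie below the lower dotted line and all 12 microglia markers lie between the dotted lines.

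Vascular genes were nearly absent on day 28. All 22 measured endothelial markers of 23 were past the size rule lower, with a median log2 ratio of -7.75, and 14 of 16 measured mural cell and fibroblast markers of 19 were lower, with a median of -6.08. With members at 0 counts set to the floor of 3 counts the medians were -8.47 and -6.52. Vwf, which encodes von Willebrand factor (chromosome 6, 125546774 to 125686679), stood at 51.0, 156, 1475, 1411 and 1.14 CPM. It was 1236-fold lower on day 28 (844 to 1893). Flt1, a receptor gene for vascular endothelial growth factor (chromosome 5, 147561604 to 147726011), stood at 44.3, 49.0, 240, 1320 and 1.32 CPM. Cldn5, the tight junction gene of the blood-brain barrier, stood at 364 CPM on day 14 and 0.26 CPM on day 28. Day 28 was the lowest of the 5 wild-type libraries for all 3, below sham as well.

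Transporters of the barrier showed the same order. Slc2a1, the glucose transporter gene, went from 587 to 0.61 CPM, Abcb1a, an efflux pump gene, from 931 to 0.79 CPM, and Slco1a4, an organic anion transporter gene, from 840 to 0.26 CPM. Ptprb, an endothelial phosphatase gene (chromosome 10, 116275523 to 116389535), had the lowest ratio of all genes with at least 10 counts on both days. It stood at 79.2, 87.9, 978, 2079 and 1.14 CPM. Podxl, Adgrf5, Sparcl1, Epas1, Cdh5, S1pr1 and Itm2a, all expressed by endothelium, were also among the 12 lowest, from -9.56 to -8.09. Pecam1, which encodes CD31, the protein stained in the sort, was the least reduced member of the list, from 607 to 26.8 CPM, and 22.7-fold lower (20.9 to 24.6). Whether CD31-positive cells were removed alike on both days is not given in the sources used here. Sele, an adhesion gene of activated endothelium, had 114 CPM on day 14 and 0 counts on day 28.

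Among mural genes, Myh11, a smooth muscle myosin gene, went from 640 to 0.26 CPM, and Rgs5, a pericyte gene, from 192 to 0.35 CPM. Acta2 went from 188 to 0.35 CPM. Col1a1, a fibrillar collagen gene, had 91.0 CPM on day 14 and 0 counts on day 28, and Fbln1 and Pdgfra, at 10.3 and 9.90 CPM on day 14, were below the minimum of the rule. In the day 14 libraries of Igf1-Egfp mice the endothelial list summed to 109 CPM in EGFP-negative and 925 CPM in EGFP-positive cells, and the mural list to 0 and 51.5 CPM. Both lists were thus lower there than the 9738 and 1891 CPM of the wild-type day 14 library. Astrocyte markers were measured for 5 of 12 genes and 2 were lower, among them Gja1, with 20.8 CPM on day 14 and 0 counts on day 28. All 4 measured neuron markers of 12 were under 20 CPM on both days. Oligodendrocyte markers were measured for 5 of 13, with 1 past the rule in each direction.

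Genes of resting microglia differed by less than 4-fold. Of all genes with at least 5 CPM, 11.3% were past the size rule higher and 17.5% lower. At 500 CPM and more, 12.7% were past it in either direction. None of the 34 homeostatic genes was past the size rule. Their log2 ratios ran from -1.05 for Crybb1 to 1.69 for Bin1, with a median of 0.60, and 29 of 34 were over 0, a direction that turned when the libraries were scaled to the microglia markers, with 20 of 34 then under 0. P2ry12, a purinergic receptor gene (chromosome 3, 59216272 to 59262871), stood at 6022, 401, 1839, 1215 and 2963 CPM, a fold of 2.44 (2.40 to 2.48). Cx3cr1, the fractalkine receptor gene, stood at 5027, 1445, 2164, 1322 and 2437 CPM. Sall1, a transcription factor gene of microglial identity, stood at 1523, 269, 791, 366 and 883 CPM. Tmem119, a membrane protein gene by which microglia are told from other macrophages, stood at 1163, 172, 398, 245 and 223 CPM. Slc2a5, a fructose transporter gene, stood at 102 and 106 CPM on days 14 and 28 and at 416 CPM in sham. Sham was the highest wild-type library for these 5, and day 28 lay between day 14 and sham for P2ry12, Cx3cr1 and Sall1 but not for Tmem119. Separately scaled, the Igf1-Egfp day 14 libraries (EGFP-negative, then EGFP-positive) held 3955 and 2915 CPM of P2ry12, near or above day 28. Cx3cr1 (3603 and 3793 CPM), Tmem119 (6593 and 4259 CPM) and Slc2a5 (1140 and 674 CPM) stood above day 28 there, and Sall1 (364 and 225 CPM) below it.

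A few genes of disease-associated microglia were lower on day 28. Of 34 listed, all measured, 3 were past the size rule lower and 1 higher, with a median of -0.31. Both shares are under the 17.5% lower and 11.3% higher among all genes, and nothing is read from them about the list. Spp1, which encodes osteopontin (chromosome 5, 104435118 to 104441050), stood at 1350 CPM on day 14 and 126 CPM on day 28, 10.7-fold lower (10.3 to 11.1). Igf1, the insulin-like growth factor gene (chromosome 10, 87858265 to 87937042), stood at 2.36, 41.2, 231, 176 and 29.5 CPM and was 5.95-fold lower (5.48 to 6.48). Ch25h, which encodes cholesterol 25-hydroxylase, stood at 1.80, 77.9, 84.4, 144 and 6.49 CPM. Both Igf1 and Ch25h remained above sham on day 28. Ccl6, a chemokine gene, went from 41.2 to 191 CPM and was the member past the rule higher, though not when the libraries were scaled to the microglia markers, where 0 were higher and 4 lower.

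The other phagocyte genes kept closer levels. Apoe stood at 3862 and 2513 CPM (log2 ratio -0.62), Gpnmb at 70.8 and 38.2 CPM (-0.87), Lpl, the lipoprotein lipase gene, at 464 and 207 CPM (-1.16) and Cst7 at 317 and 172 CPM (-0.88). The cathepsin genes Ctsd (-0.83), Ctsb (-0.86) and Ctsl (-0.83) had ratios alike in size. Lilrb4a (131 and 445 CPM), Cd52 (81.2 and 266 CPM) and Lgals3 (21.2 and 69.7 CPM) were on the other side of 0 without passing the rule. In the separately scaled day 14 libraries of Igf1-Egfp mice, Igf1 stood at 11.1 CPM in EGFP-negative and 33.5 CPM in EGFP-positive cells, close to or under its wild-type day 28 level, and Spp1 at 875 and 1616 CPM, above it. Among 37 measured lysosome genes of 39, 1 was past the rule in each direction, Mcoln1 higher (not with scaling to the microglia markers) and Galns lower. The median was 0.09, and its sign turned with total count scaling.

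**Figure D4:**
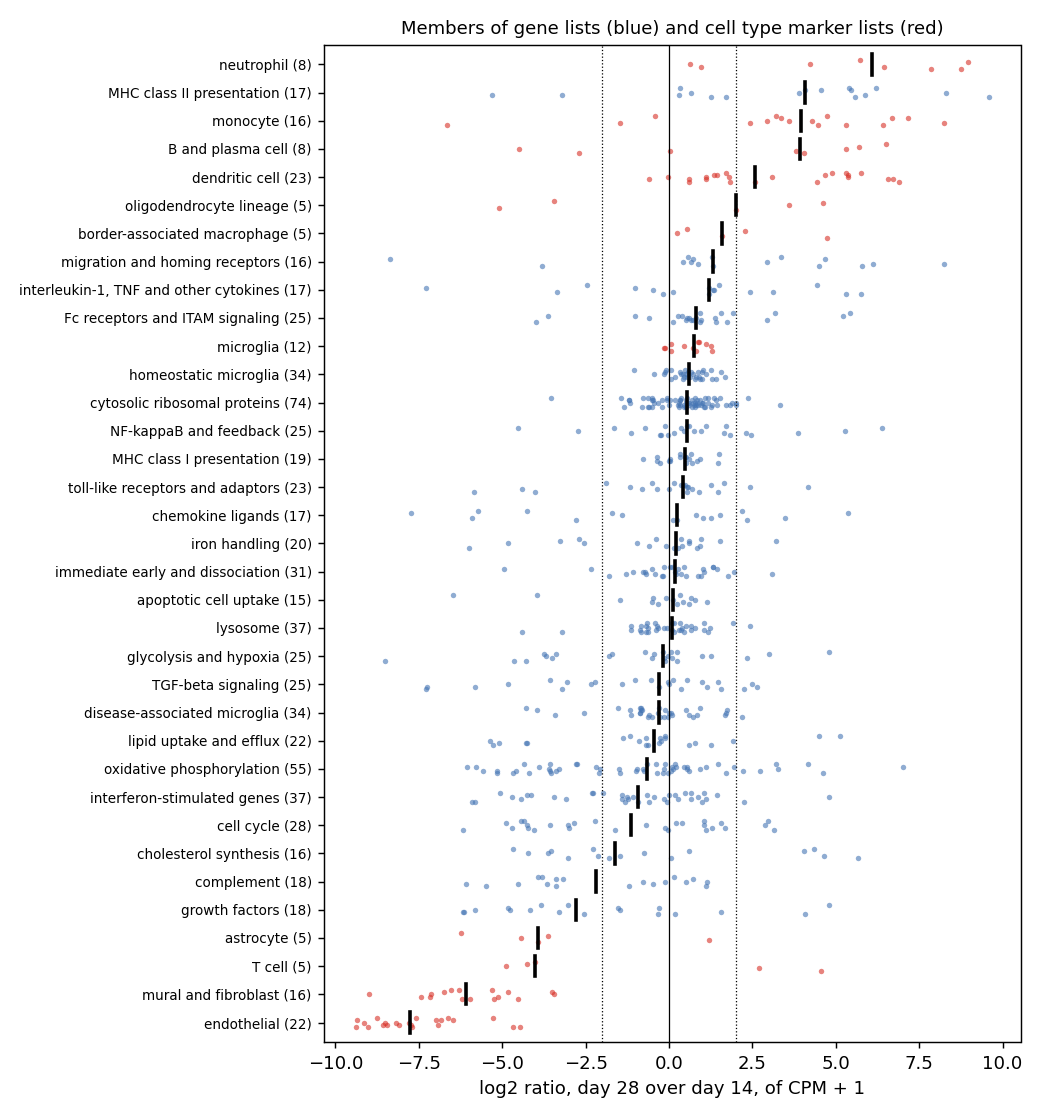
Log2 ratio of each measured member of the gene lists (blue) and marker lists (red) with at least 5 measured members, with the list median as a black bar and dotted lines at -2 and 2. The endothelial median is -7.75, the homeostatic microglia median 0.60 and the class II median 4.09.

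Interferon-stimulated genes split. These genes are switched on by interferons through STAT and IRF factors, which bind an element searched here as TTTC, any 2 bases and TTTC again. Of 37 measured genes of 38, 10 were past the size rule lower and 2 higher, with a median of -0.92, and 25 were not past it. The shares of all genes with at least 5 CPM were 17.5% lower and 11.3% higher, with a median of -0.20. By level, 36.6% of all genes at 20 to 50 CPM were past it lower, and 21.1% at 50 to 100 CPM. The last 170 bases before the start are shown for Ifit1 and Ifit3, members past the rule lower that hold the element more than once, with capitals marking it. They lie at chr19:34640719-34640888 and chr19:34583359-34583528, both on the plus strand of GRCm38.p6.
Ifit1: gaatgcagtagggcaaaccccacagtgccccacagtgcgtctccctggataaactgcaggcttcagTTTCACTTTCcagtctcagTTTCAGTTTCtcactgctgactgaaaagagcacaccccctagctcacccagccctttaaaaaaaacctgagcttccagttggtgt
Ifit3: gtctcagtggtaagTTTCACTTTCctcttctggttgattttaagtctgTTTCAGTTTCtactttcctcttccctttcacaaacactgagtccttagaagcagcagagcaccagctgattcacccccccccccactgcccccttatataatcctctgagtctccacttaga
The copies lay at -104 to -95 and -85 to -76 in Ifit1 and at -156 to -147 and -122 to -113 in Ifit3, with no overlap. On either strand the element stood in 12 of 26 listed promoters that matched, against 2.98% of all promoters. It stood in 3 of 8 members past the rule lower, in 8 of 16 not past it and in 1 of 2 past it higher.

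Ifit1, which encodes a protein that binds foreign RNA, stood at 4.01, 20.7, 33.8, 64.9 and 0.18 CPM, from 1192 counts on day 14 and 4 on day 28. Ifit3 stood at 6.80, 17.3, 55.2, 120.02 and 10.05 CPM and was 11.9-fold lower (10.4 to 13.7), though reads of Ifit3 and its near copy Ifit3b may have been split between them. Ddx58, which encodes the RNA sensor RIG-I, went from 56.9 to 1.23 CPM, and Ifi44 from 58.3 CPM to 0 counts. Usp18, which damps interferon signaling, went from 27.3 to 4.83 CPM. By contrast Ifit2, a neighbour of Ifit1 and Ifit3, stood at 82.5 and 131 CPM, Oasl2 at 136 and 129 CPM, Irf7 at 122 and 172 CPM and Ifitm3 at 240 and 441 CPM. Herc6 (20.3 to 100.4 CPM) and Oas1a (4 counts and then 32.7 CPM) were higher, but with scaling to the microglia markers 0 were higher and 14 lower. The members past the rule lower had at most 120.02 CPM on day 14, at or near the low levels where most genes past the rule lie.

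Inflammatory cytokine genes leaned to day 28. Of 17 measured genes of 32, 5 were past the size rule higher and 1 lower, with a median of 1.21. The shares of all genes with at least 5 CPM were 11.3% higher and 17.5% lower, with a median of -0.20. Il1b, the interleukin-1 beta gene (chromosome 2, 129364570 to 129371139), stood at 4.78, 83.7, 20.1, 26.01 and 232 CPM, a fold of 8.90 (8.11 to 9.80). Osm, the oncostatin M gene, stood at 41.4, 209, 51.6, 58.2 and 319 CPM. Day 28 was the highest library for both. Tnfsf13b, a B cell survival factor gene, had 53.6 CPM on day 28 and 0 counts on day 14, but 11.9 CPM on day 6. Il12b (38.5 CPM) and Tnfsf9 (20.8 CPM) also had 0 counts on day 14. At their level of 20 to 50 CPM, 18.55% of all genes were past the rule higher. Tnf (111 and 258 CPM), Il1a (110 and 256 CPM) and the inflammasome gene Nlrp3 (117 and 296 CPM) were not past the rule. Il1r1, the interleukin-1 receptor gene that brain endothelium expresses, went from 211 to 0.35 CPM. Neutrophils and monocytes, whose summed markers were higher on day 28, can express Il1b, and their part in it was not tested. With scaling to the microglia markers 3 cytokine genes were higher, and Osm and Tnfsf9 were no longer past the rule.

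Chemokine genes went both ways, with 3 higher and 3 lower of 17 measured of 26. Among all genes with at least 5 CPM, 11.3% were past the rule higher and 17.5% lower. Nothing is read from these counts about the list. Ccl2, the ligand gene of CCR2, stood at 72.6, 173, 150, 77.0 and 392 CPM, and Ccl22 had 39.9 CPM on day 28 and 0 counts on day 14. Cxcl12, made by endothelium and stroma, went from 269 to 0.26 CPM, Cx3cl1, the fractalkine gene, from 69.3 to 0.18 CPM, and Cxcl1 from 51.5 CPM to 0 counts. Ccl3 (1049 and 2132 CPM) and Ccl4 (566 and 999.7 CPM), chemokine genes that microglia make in quantity, were not past the rule. In the NF-kappaB list 5 of 25 measured genes of 26 were higher and 2 lower. Ikbkb and Ikbkg, which encode parts of the kinase that frees NF-kappaB, went from 56.6 to 318 CPM and from 9.36 to 149 CPM, and Tnip1 and Nfkbie were lower. With scaling to the microglia markers 1 chemokine gene was higher and 4 lower, and 3 NF-kappaB genes were past the rule in each direction, with Ccl2 and Ikbkb no longer among the higher ones.

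In the list of Fc receptors and ITAM signaling, 4 of 25 measured genes of 28 were higher and 0 lower, against the background of 11.3% and 17.5%. The log2 ratios ran from -3.98 to 5.43. The inhibitory receptor gene Pirb (49.3 to 383 CPM), the kinase gene Fgr (10.8 to 105 CPM) and the lectin genes Clec4d (0.54 to 56.9 CPM) and Clec4e (0.33 to 56.0 CPM) were the 4. Trem2, Tyrobp and Syk, at the core of the pathway in microglia, had log2 ratios of 0.52, 0.93 and 0.71. Of 23 measured genes of toll-like receptor signaling, 3 were lower, Tlr6, Irak4 and Ticam1, and 0 higher.

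Growth factor genes leaned to day 14. Of 18 measured genes of 31, 6 were past the size rule lower and 1 higher, with a median of -2.77 that was -0.90 over the 10 members with at least 10 counts on both days. The shares of all genes with at least 5 CPM were 17.5% lower and 11.3% higher, with a median of -0.20. Igf2 (83.3 to 0.18 CPM) and Ptn (75.5 to 0.09 CPM), which vascular and meningeal cells make, and Tgfb2 (65.3 to 0.18 CPM) were lower beside Igf1. Vegfa, the growth factor gene for blood vessels, was the 1 member higher, at 2.61, 39.6, 3.98, 1.20 and 60.2 CPM. Tgfb1, a factor that maintains microglial identity, stood at 146 and 430 CPM, below the rule. In the TGF-beta list 8 of 25 measured genes of 27 were lower and 3 higher, beside the same shares of all genes. The lower ones included Acvrl1 (151 CPM and 0 counts) and Eng (379 and 74.3 CPM), receptors of endothelium, and Smad4 (143 and 14.7 CPM), the shared mediator. Tgfbi (29.5 to 188 CPM) and Nrros (18.5 to 91.9 CPM), which anchors latent TGF-beta on microglia, were higher. With scaling to the microglia markers 0 of this list were higher and 9 lower. The vascular marker lists move with the lower genes of both lists, and their part was not tested.

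Complement genes were lower for 4 of 18 measured of 23 and higher for 0. C4b, whose counts may be shared with its near copy, went from 72.1 to 0.09 CPM and C3 from 49.2 to 3.77 CPM. The C1q genes, which microglia express in quantity, had log2 ratios of -1.21 (C1qa), -0.47 (C1qb) and -0.12 (C1qc). Lipid genes were higher for 2 and lower for 4 of 22 measured of 25. Msr1, a scavenger receptor gene, had 0.38 and 47.7 CPM, and Pltp, a phospholipid transfer gene, 245 and 6.23 CPM. Cholesterol synthesis genes split into 3 higher (Sqle, Lss and Fdft1) and 3 lower (among them Nsdhl and Srebf2) of 16 measured of 23, so neighbours in 1 pathway went opposite ways. Iron genes were lower for 3 of 20 measured of 24, among them the iron exporter gene Slc40a1 (103 to 16.9 CPM), while the ferritin gene Fth1 stood at 2217 and 2438 CPM. Genes for uptake of apoptotic cells were lower for 2 of 15 measured of 22, Mfge8 and Cd93. The lower shares of the complement, lipid, cholesterol synthesis, iron and apoptotic uptake lists lie near or under the 17.5% of all genes. Nothing is read from these counts about the lists.

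Proliferation genes gave no single direction. Of 28 measured cell cycle genes of 38, 2 were higher and 6 lower, and the median of -1.15 was 1.06 over the 15 members with at least 10 counts on both days. The shares of all genes were 11.3% higher and 17.5% lower, and nothing is read from the 2 counts about the list. Mki67, a gene of dividing cells, stood at 18.7, 43.6, 296, 101 and 217 CPM, a log2 ratio of 1.10. Ccna2, the cyclin A2 gene, went from 5.98 to 50.6 CPM, while Cenpf and Kif11, genes of mitosis, went from 28.3 and 20.7 CPM to 0 counts. Of the 38 listed genes, 17 had 0 counts on day 28 and 5 on day 14.

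Few immediate early genes, which sorting itself can switch on, were past the size rule. Their list, which includes heat shock genes, summed to 26291 CPM on day 14 and 38965 CPM on day 28. Of 31 measured of 32, 1 was higher and 2 lower, with a median of 0.19. Fos stood at 2199 and 3161 CPM and Jun at 4340.5 and 8757 CPM. Hspa1b, a heat shock gene, stood at 290, 315, 132, 119 and 1022 CPM and its near copy Hspa1a at 284, 375, 164, 277 and 953 CPM, so their split between copies is uncertain. Hsp90aa1, another heat shock gene, stood at 584 and 2274 CPM. The study's transcription factor genes Yy1 (49.0 and 174 CPM, log2 ratio 1.81) and Zfp384 (126 and 255 CPM, 1.01) were not past the rule, with day 28 the highest of the 5 libraries for both.

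Genes that every cell uses passed the rule in both directions. Of 55 measured nuclear genes of oxidative phosphorylation of 59, 7 were past the rule higher and 12 lower, together 34.5%. Among all genes with at least 5 CPM, 11.3% were higher and 17.5% lower, and nothing is read from these counts about the list. Sdhb, a subunit gene of complex II, stood at 27.1, 31.7, 36.5, 77.5 and 0.18 CPM. Ndufa6, a subunit gene of complex I, stood at 13.7, 14.1, 23.3, 0 and 129 CPM. These 2 genes of the respiratory chain, chosen after their values were seen, thus differed in opposite directions. Ribosomal protein genes, with higher levels, were higher for 4 and lower for 0 of 74 measured of 77, with a median of 0.54 that turned to -0.21 with scaling to the microglia markers. In the glycolysis and hypoxia list 2 of 25 measured of 29 were higher and 6 lower, and Gapdh stood at 345 and 367 CPM and Hif1a at 604 and 587 CPM. Nothing is read from the counts of this list either.

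Across all genes, 1203 genes were past the size rule higher, 1865 lower and 5173 not, of the 8241 with at least 20 CPM. Scaled to the microglia markers, the split was 603 higher and 2255 lower. Of the lower genes 599 (32.1%) had 0 counts on day 28, and of the higher genes 267 (22.2%) had 0 counts on day 14. The share past the rule was 55.1% among 2938 genes of 20 to 50 CPM and 12.7% among 332 genes of at least 500 CPM. Of these 332, 11 were higher and 31 lower. No gene of at least 500 CPM on 1 day had 0 counts on the other, 0 of 203 on day 14 and 0 of 276 on day 28. The lower genes took 16.4% of the day 14 counts and 0.667% of those of day 28, and the higher genes took 1.31% and 10.8%. H2-Aa, Cd74, Ccr2, S100a9, Vwf, Flt1 and Spp1 belong to the upper levels, where calls are fewer, while the lower interferon-stimulated, mitochondrial and cell cycle genes other than Ifit3 belong to the range of 20 to 100 CPM, where calls are common.

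**Figure D5:**
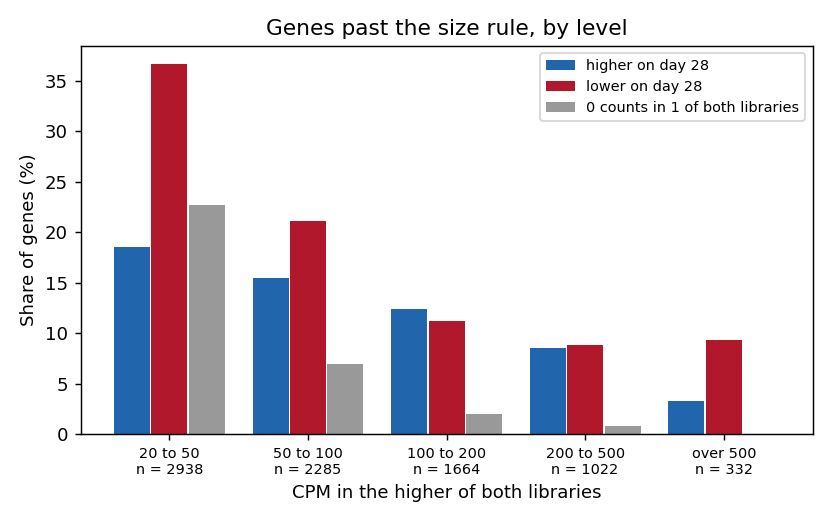
Share of genes (%) past the size rule higher or lower, and share with 0 counts in 1 of both libraries, by the CPM of the higher library. The share with 0 counts is 22.7% at 20 to 50 CPM and 0% from 500 CPM.

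Outside the lists, the 12 highest ratios with at least 10 counts on both days included genes of leukocytes. Plbd1, a phospholipase gene of granulocytes and monocytes, stood at 1.57, 39.5, 7.15, 3.48 and 477 CPM, a log2 ratio of 6.74. Arhgap15 (3.16 to 275 CPM), Cytip (0.54 to 116 CPM) and Pim1, a kinase gene (2.61 to 201 CPM), were higher as well. Lsp1, a leukocyte cytoskeleton gene, had 1.52 CPM on day 14 and 244 CPM on day 28, but 29.8 CPM in sham. Wdr46, Ddias and Arl6ip4, genes not tied to leukocytes, completed them with 14, 12 and 14 counts on day 14. Among genes at 0 counts on day 14 the highest on day 28 were Ngp, Ltf, Ndufa6, Ssh3, Pstpip1 and Cd209a. Among genes at 0 counts on day 28 the highest on day 14 included Id1, Nfib, Slco1c1, Ccdc141 and Cd200, of which Slco1c1 is a transporter gene of the blood-brain barrier.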

How the data were processed

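The authors deposited whole-number read counts per gene, with no normalization, per the file headers and values. STAR, featureCounts and edgeR and the builds mm10 and GRCm38 are named in the submitters' processing notes; their roles, the annotation and the strand setting are not given in the sources used here. RNA was made into libraries with an Ovation SoLo kit, per the labels' protocols, and the 2 libraries compared were sequenced on a HiSeq 2500. Groups came from sample titles and 0 columns were left unused. Names like dates were carried by 27 genes, kept in totals but not named, and 0 mitochondrially encoded genes were listed.

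From these counts TMM factors were computed over the 7 libraries of the table (edgeR 4.0.16, R 4.3.3), with CPM, ratios and exact intervals in Python 3.11.15 (scipy 1.17.1). The calculation was tested on simulated data. A list member was measured from 5 CPM in 1 of both libraries, and 24 gene lists and 14 marker lists were used. Genes named were 15 fixed genes, the 12 highest and 12 lowest ratios among genes past the size rule with at least 10 counts on both days, the 6 highest with 0 counts on either day, and per list up to 4 past the rule and 2 not past it by CPM. Other list members are named as examples chosen after their values were seen. Members and lists were chosen with earlier results of these data known. Coordinates are from GENCODE M21 on GRCm38. The Yy1 table was not used here. In all, 12 alternatives of scaling, pseudocount, minimum and size were tried, 11 of them planned. Results of a few genes named by list are not reported here.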

Additional observations from a re-analysis of the deposited data

How the results depend on the processing

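No paired analysis was possible because each time point has 1 library. With a minimum of 5 CPM, 3456 genes were lower, with 50 CPM 790 were lower and 658 higher, with at least 10 counts on both days 686 were lower, and with no minimum 3758 were lower. At an absolute log2 ratio of 1, 2461 were higher. The median ratio of all genes considered was 0.16, and 0.082 with RLE, 0.11 with TMM over the pair, -0.0035 with total counts, -0.20 from 5 CPM, 0.34 from 50 CPM, 0.38 with 10 counts on both days and -0.28 with no minimum, so its sign depends on the minimum and the scaling. Scaling so that the 12 microglia markers have a median of 0 was chosen after seeing the data and moved all ratios by -0.74. It gave 603 genes higher and a median of -0.71, and list medians of -0.16 (homeostatic), -1.06 (disease-associated), -1.57 (interferon-stimulated), -0.21 (ribosomal) and -4.2e-05 (the markers themselves). Total counts shifted ratios by -0.12. The endothelial median was -8.61 with a pseudocount of 0.5 CPM and -5.67 with 5 CPM, where the mural median was -3.97. Of 413 list medians over the alternatives, 25 changed sign, in 21 of 38 lists, and of 1442 values of named genes 0 turned among genes past the rule. Of genes with at least 20 CPM on day 14, 8.91% had 0 counts on day 28, and the cause was not tested. Leaving out a library was not possible with 1 per day.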
